A study of Homo sapiens with 12 samples.

Results

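AS1411 is a guanine-rich DNA oligonucleotide that folds into a G-quadruplex (G4), a stack of planar guanine quartets, and binds the nucleolar and cell surface protein nucleolin. The comparison described here sets cells transfected with AS1411 against cells given the transfection reagent alone. It rests on 6 of the 12 arrays of the series, 3 with AS1411 and 3 with the reagent alone, joined in pairs by cell line. The lines are PC-3, labelled as human prostate cancer, HBC4, labelled as human breast cancer, and MKN74, labelled as human gastric cancer. In all groups 300000 cells were reverse-transfected with Lipofectamine RNAiMAX, kept in 3D culture in low-adhesion wells and harvested at 72 h. The AS1411 wells received about 100 pmol (1 ug) of the oligonucleotide, and the reagent-alone wells received none. The other 6 arrays carried RNA oligonucleotides at the same amount, the G4-forming telomeric repeat (uuaggg)4 and its cytosine counterpart (uuaccc)4, which serve below for values side by side. No DNA oligonucleotide unable to fold into a G4 was analysed here, so DNA as such and its fold cannot be told apart. Each line and treatment had 1 array, and the labels name no separate cultures. The p-values measure only the spread that line and treatment leave between arrays. Unequal responses of the 3 lines and technical noise both enter that spread and cannot be told apart.

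Cells recognise foreign or misplaced nucleic acids through sensors in endosomes and in the cytosol, and the signal runs through adaptor proteins and IRF transcription factors to the interferon genes. Secreted interferon then acts back on its receptor, and a factor complex that contains IRF9 switches on a large set of interferon-stimulated genes at a promoter element rich in GAAA. Many of these genes encode proteins that block viral entry, translation or replication, and others feed MHC class I antigen presentation. AS1411 is known as an anti-proliferative aptamer, taken up in part by macropinocytosis, and nucleolin is known for its part in ribosome production and in the stability of some mRNAs such as that of BCL2.

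Values are log2 expression centred on each probe set's median over the 12 arrays, so a value says how far an array lies above or below that median, and only differences between arrays can be read. Cell line was the main divide among the arrays, with correlations of at least 0.892 inside a line and of at most -0.174 across lines. Centring each probe set over the arrays pushes correlations across lines below 0, so their sign does not show opposed profiles. The tissue labels were only partly matched by markers. Of 8 prostate markers 4 were highest in PC-3: the factor HOXB13 and the metalloreductase STEAP2 lay 4.86 and 4.21 above the next line (log2, line means), TMPRSS2 1.17 and FOLH1 0.03, while the kallikreins KLK2, KLK3 and KLK4 and the phosphatase ACP3 were higher in another line. Of 10 breast markers 8 were highest in HBC4, among them the oestrogen receptor gene ESR1 (3.18 above the next line), TRPS1 (1.76) and SCGB2A2 (1.16), and the other 5 by 0.22 or less. The factors FOXA1 and TBX3 were higher in PC-3 (HBC4 minus PC-3: -5.98 and -2.15). Of 12 gastric markers only 4 were highest in MKN74, by 0.59 or less, while 6 were highest in the arrays labelled PC-3, among them the trefoil factors TFF1 and TFF2 (MKN74 minus PC-3: -8.30 and -8.86). The gastric label of MKN74 is therefore not borne out by these relative levels, and the lines are named below as their labels give them. None of the 50 measured markers of prostate, breast, gastric, leukocyte, fibroblast or endothelial cells passed the test for AS1411. Over all genes 0.551% passed in either direction.

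AS1411 lowered genes of the interferon response in all 3 lines and raised a smaller group in which cell division genes were the most numerous of the listed genes. With limma, 94 of 19775 genes fell (0.475%) and 15 rose (0.0759%) at an adjusted p of 0.05, and each of the 109 had the same direction in the 3 lines. Without a test, 15.9% of all genes were lower in each line and 15.8% higher. Single probe sets gave 166 lower (0.404%) and 25 higher (0.0608%) of 41091. Among the fallers 54 were at least 2-fold lower, while among the risers only DANCR reached 2-fold. The median difference of the fallers was -1.17 and that of the risers 0.62, against 0.01 over all genes tested (quartiles -0.11 and 0.11). Of the 94 fallers, 49 belonged to the 6 lists of interferon response and antigen presentation, and of the 15 risers, 8 belonged to the lists of cell division and DNA replication. All lists together, drawn up with earlier results of these data known, held 51 of the 94 fallers and 608 of the 19775 genes. Of the 15 risers 4 were in no list. The shares of 0.475% and 0.0759% are the background for the list counts below. In 37 of the 94 fallers each AS1411 array lay below each reagent-alone array whatever the line, as in 1.10% of all genes; of the risers only ATP2A1-AS1 had its AS1411 arrays above all reagent-alone arrays, as did 2.80% of all genes. In these bulk samples fewer responding cells and less RNA per cell cannot be told apart. The count of fallers moved with single libraries: 32 without the PC-3, 35 without the HBC4 and 70 without the MKN74 AS1411 array, and 46, 36 and 60 without the corresponding reagent-alone arrays. The count of risers moved further, to 2, 2 and 5 without the AS1411 array of PC-3, HBC4 and MKN74 and to 30, 1 and 1 without the reagent-alone arrays, and it was 0 on the 6 arrays of the pair alone.

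**Figure D1:**
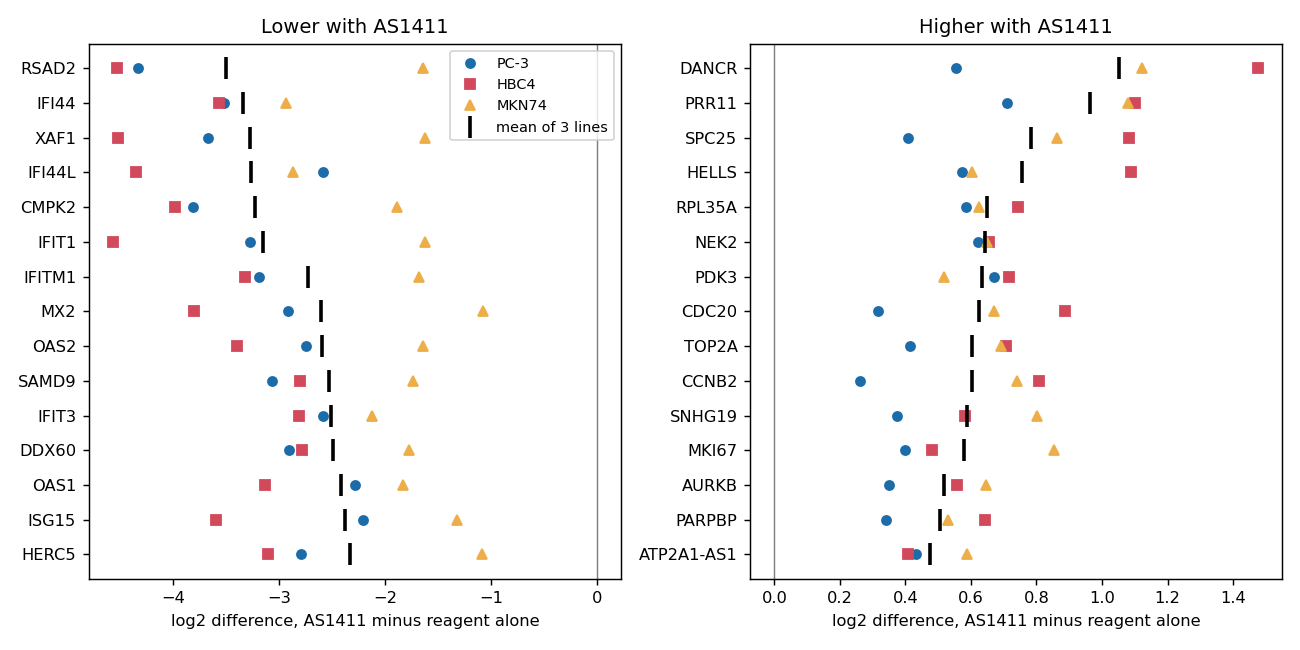
Log2 differences (AS1411 minus reagent alone) of the 15 genes with the largest falls and the 15 that rose, in PC-3 (circles), HBC4 (squares) and MKN74 (triangles), with the mean of the 3 lines as a black bar. Falls reach -4.57 (IFIT1 in HBC4) and the triangles of MKN74 often lie nearest to 0. Rises reach 1.48 (DANCR in HBC4) and the circles of PC-3 often lie nearest to 0.

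The antiviral effectors carried the largest falls. IFI44, an interferon-induced protein of the cytoplasm, stood at 2.97, 2.97 and -0.05 in PC-3, HBC4 and MKN74 with the reagent alone and at -0.55, -0.60 and -2.99 with AS1411. Each line lost a similar amount, and the level of MKN74 with the reagent alone was near that of the other 2 lines with AS1411. The mean difference was -3.35 ± 0.35 (SD, n = 3 lines; 95% interval -3.68 to -3.01), a 10.2-fold fall with an adjusted p of 5.25e-06. IFIT1, which binds viral RNA with an unmethylated cap, stood at 1.01, 0.46 and 0.95 with the reagent alone and at -2.26, -4.11 and -0.68 with AS1411. Its groups did not overlap, and the fall was unequal: -3.27 (PC-3), -4.57 (HBC4) and -1.62 (MKN74) (mean -3.16 ± 1.48, adjusted p = 0.0178). RSAD2 (viperin), which makes a chain-terminating nucleotide, stood at 1.16, 0.15 and 1.49 with the reagent alone and at -3.17, -4.37 and -0.15 with AS1411. The MKN74 array with AS1411 was below the lowest reagent-alone array by little, and the mean fall of -3.50 ± 1.61 (11.3-fold, adjusted p = 0.0128) was the largest among genes past the threshold. IFIT3, a partner of IFIT1, fell by a similar size in each line (mean -2.51 ± 0.36, 5.69-fold, adjusted p = 2.45e-05).

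In all, 27 of the 44 measured antiviral effectors fell and none rose, where 0.475% of all genes fell. The list's median difference was -1.64, against 0.01 for all genes, and the mean difference was below 0 for each of the 44. Next to the genes above, the apoptosis-linked XAF1 (-3.27 ± 1.49), IFI44L (-3.27 ± 0.95), the mitochondrial nucleotide kinase CMPK2 (-3.23 ± 1.16), the membrane protein IFITM1, which hinders viral entry (-2.73 ± 0.91), and MX2, a dynamin-like restriction factor (-2.60 ± 1.40), fell by more than 6-fold. The 2-5A synthetases, which activate RNase L, fell together: OAS2 by 6.05-fold, OAS1 by 5.33-fold and OAS3 by 3.94-fold. SAMD9, a restriction factor of poxviruses, was 5.80-fold lower, and SHFL, which stops ribosomal frameshifting, was 2.47-fold lower with an SD of 0.16. EIF2AK2 (PKR), the kinase that halts translation on double-stranded RNA, was 2.07-fold lower (adjusted p = 0.0138).

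The 17 effectors that did not pass included some of the largest mean differences, with wide gaps between lines. IFI27, a small mitochondrial protein, had the largest mean of the list at -3.89 ± 2.12 (adjusted p = 0.0668), with -4.37 (PC-3), -5.74 (HBC4) and -1.57 (MKN74). IFI6 gave -3.08 ± 1.96 (adjusted p = 0.0747) and MX1, the best known antiviral GTPase, -1.98 ± 1.57 (adjusted p = 0.166). BST2 (tetherin), which holds budding virions on the cell, gave -4.42 (PC-3), -1.23 (HBC4) and -1.88 (MKN74) (adjusted p = 0.0691). SAMD9L and OASL lay near 0 in MKN74 (0.12 for both) and between -2.27 and -3.39 in the other 2 lines.

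The size of the fall was not equal in the 3 lines. Medians of the 44 effectors were -2.40 (PC-3), -1.59 (HBC4) and -1.13 (MKN74). MKN74 showed the smallest absolute difference for 33 of the 44, as it did for 6921 of all 19775 genes. Among the 94 fallers the medians were -1.29 (PC-3), -1.10 (HBC4) and -0.99 (MKN74), with 60, 48 and 47 genes at least 2-fold lower in PC-3, HBC4 and MKN74. The order was not the same for all genes: HCP5, a transcript of the MHC region, fell most in MKN74 (-2.22, against -1.25 in PC-3 and -1.28 in HBC4), and so did LGALS3BP, a secreted glycoprotein (-1.81, against -1.24 in PC-3 and -0.84 in HBC4). With 1 array per line and treatment the difference between lines was not tested.

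**Figure D2:**
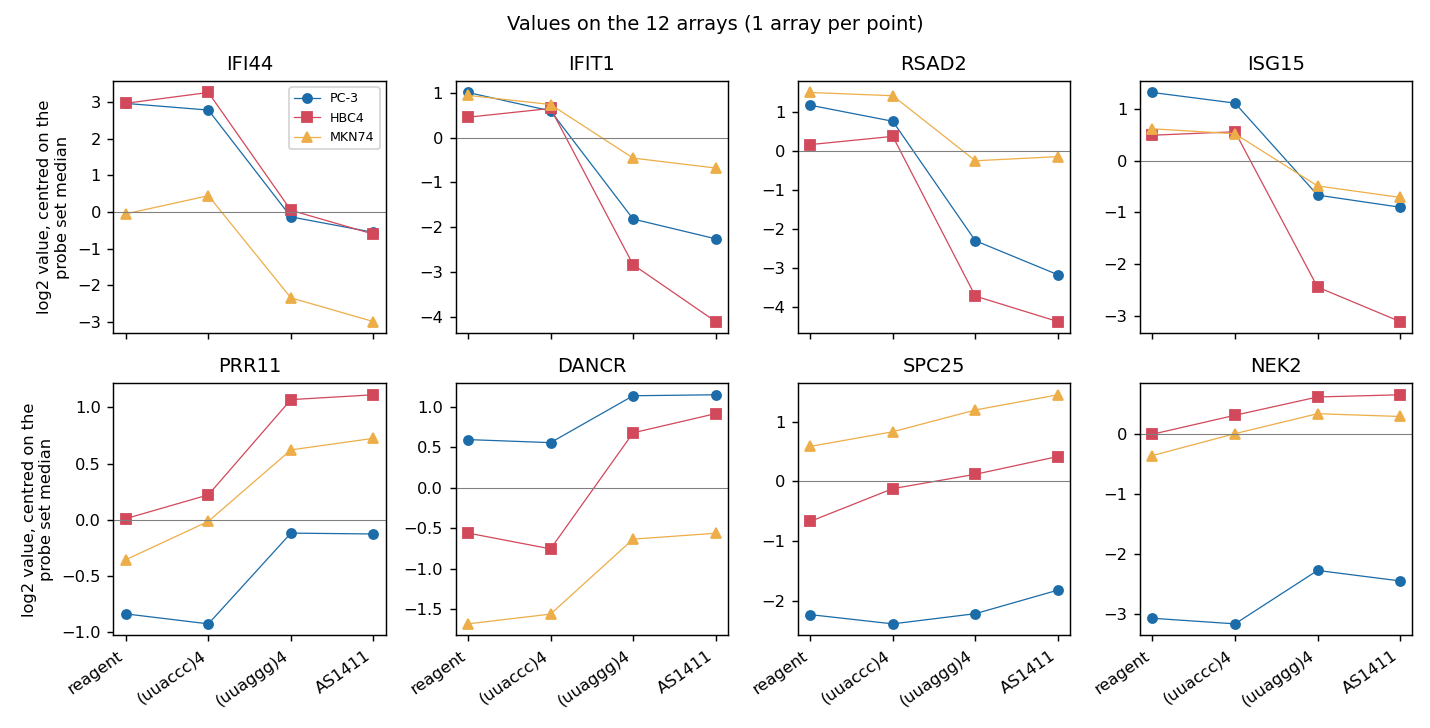
Centred log2 values of 8 genes on the 12 arrays, by treatment (horizontal axis) and cell line (colour and symbol), 1 array per point. For the 4 interferon-stimulated genes of the upper panels the reagent and (uuaccc)4 lie together and (uuaggg)4 and AS1411 lie below them in each line; for PRR11, DANCR, SPC25 and NEK2 the AS1411 point lies above the reagent point in each line.

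The promoter element of interferon-stimulated genes was looked for as GAAA, 2 bases of any kind, and GAAA again, on both strands, in the 250 bases before each transcription start (RefSeq, GRCh38.p14). It was present for 3.39% of the 15384 genes with such a window and in 2.55% of all windows. Of the 74 fallers with a window 25 carried it (33.8%), and none of the 15 risers did. Fallers in a fixed list carried it in 24 of 42 cases (57.1%), fallers in no list in 1 of 32 (3.12%), that of NMI, an interferon-induced binding partner of MYC. Whether or not they fell, 21 of 34 antiviral effectors (61.8%) and 5 of 10 genes of the ISG15 and PARP list (50%) carried it. So did 5 of 21 nucleic acid sensors and adaptors (23.8%) and 7 of 19 MHC class I genes (36.8%). The share among listed fallers thus follows the make-up of the lists as well. Windows of 3 genes that fell in all lines are shown, on the strand of the gene and ending at its start, with the matches in capitals (a match on the other strand reads TTTC, 2 bases, TTTC); in ISG15 the 2 matches overlap.
IFIT1, chr10:89392373-89392622, plus strand: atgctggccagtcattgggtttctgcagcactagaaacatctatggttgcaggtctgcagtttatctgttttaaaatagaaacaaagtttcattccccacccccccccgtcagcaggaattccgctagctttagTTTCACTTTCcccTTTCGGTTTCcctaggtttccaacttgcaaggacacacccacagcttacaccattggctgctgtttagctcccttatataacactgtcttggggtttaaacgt
IFI44, chr1:78649539-78649788, plus strand: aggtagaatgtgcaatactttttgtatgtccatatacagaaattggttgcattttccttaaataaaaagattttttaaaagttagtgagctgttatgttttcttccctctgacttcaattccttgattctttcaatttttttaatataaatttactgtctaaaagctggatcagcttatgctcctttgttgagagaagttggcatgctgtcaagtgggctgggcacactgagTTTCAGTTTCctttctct
ISG15, chr1:1013247-1013496, plus strand: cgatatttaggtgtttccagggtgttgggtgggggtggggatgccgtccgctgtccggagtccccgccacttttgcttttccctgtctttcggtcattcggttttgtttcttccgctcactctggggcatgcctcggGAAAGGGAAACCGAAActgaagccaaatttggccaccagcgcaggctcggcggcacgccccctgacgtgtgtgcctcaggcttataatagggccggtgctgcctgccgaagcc
The window of OAS1, which fell by 5.33-fold, held no match with 2 bases between. It held the letters gaaacgaaa, with 1 base between, as did the windows of RSAD2 and RIGI. That spacing was not counted, so the shares above hold for the spacing of 2 bases only.

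Most measured genes of the ISG15 pathway fell. ISG15 is a ubiquitin-like protein that is attached to other proteins by UBE2L6 and HERC5 and removed by USP18, and 8 of the 12 measured members of this pathway and of the linked PARP enzymes fell, where 0.475% of all genes fell, with a list median of -1.66. ISG15 stood at 1.31, 0.49 and 0.61 in PC-3, HBC4 and MKN74 with the reagent alone and at -0.90, -3.10 and -0.71 with AS1411. The groups did not overlap, and the HBC4 array with AS1411 was far below the rest (mean difference -2.38 ± 1.14, 5.19-fold, adjusted p = 0.0249). UBE2L6 fell evenly (-1.69 ± 0.30, adjusted p = 1.18e-04), HERC5 by 5.02-fold and USP18 by 5.01-fold. The ADP-ribosyltransferases PARP9, PARP12 and PARP14 fell by 4.56-fold, 3.11-fold and 2.61-fold, and DTX3L, the ubiquitin ligase that binds PARP9, by 2.39-fold. HERC6 (-2.25, adjusted p = 0.0580) and PARP10 (-1.09, adjusted p = 0.0567) did not pass. The probe sets of a gene did not always agree: those of PARP14 ranged from -1.38 to 0.21.

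Among nucleic acid sensors and their adaptors 6 of 29 fell and none rose, where 0.475% of all genes fell, with a list median of -0.15. The cytosolic RNA sensor RIGI stood at -0.12, 0.57 and 1.42 with the reagent alone and at -3.28, -1.78 and 0.12 with AS1411. It was lower in each line, but the groups overlapped because MKN74 with AS1411 lay above PC-3 with the reagent alone (mean -2.27 ± 0.94, 4.82-fold, adjusted p = 0.00712). IFIH1 (MDA5), the sensor of long double-stranded RNA, fell by 4.40-fold, the helicases DDX60 and DDX60L by 5.61-fold and 3.20-fold, and IFI16, a nuclear DNA sensor, by 4.88-fold. ADAR, which edits double-stranded RNA, fell by 1.84-fold. These 6 are themselves interferon-stimulated genes. Apart from IFI16, sensors and adaptors that act on DNA did not pass. The values were 0.08 ± 0.32 for TLR9, the endosomal receptor for CpG DNA (adjusted p = 0.833), -0.15 ± 0.17 for CGAS (adjusted p = 0.760), -0.23 ± 0.31 for STING1 (adjusted p = 0.523) and -0.47 ± 0.79 for AIM2 (adjusted p = 0.511). The adaptors MAVS (-0.05 ± 0.18) and MYD88 (-0.54 ± 0.26, adjusted p = 0.0762) did not pass either.

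Of 27 measured interferons, receptors and signalling genes, 2 fell, where 0.475% of all genes fell. Both are transcription factors that interferon itself induces. IRF7 stood at 0.70, 0.31 and 0.54 with the reagent alone and at -0.62, -1.44 and -0.23 with AS1411, without overlap (-1.28 ± 0.49, adjusted p = 0.00877). IRF9, the DNA-binding part of the interferon-activated complex, gave -1.17 ± 0.62 (adjusted p = 0.0357). IRF3, which is activated by phosphorylation, gave -0.03 ± 0.16. The interferon genes had differences below 0 but did not pass: -0.63 ± 0.36 for IFNB1 (adjusted p = 0.319), -0.91 ± 0.38 for IFNL1 (adjusted p = 0.0717) and -1.08 ± 1.07 for IFNL2 (adjusted p = 0.305). Their detection on these arrays could not be judged from centred values. The list median was -0.17.

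Genes of antigen presentation and chemokine genes fell in part. Of 22 MHC class I genes 4 fell, where 0.475% of all genes fell, with a list median of -0.38. They were PSMB9, an immunoproteasome subunit (3.19-fold), the peptide transporter TAP1 (2.62-fold), HLA-C (2.05-fold) and HLA-E (1.93-fold). HLA-B gave -1.18 ± 0.62 (adjusted p = 0.0923) and NLRC5, the activator of class I genes, -1.35 ± 0.78 (adjusted p = 0.0563). B2M, the class I light chain, gave -0.54 ± 0.35, and 1 of its 3 probe sets passed. Of 6 interferon-linked chemokines CCL5 fell by 4.37-fold (-1.83 in PC-3, -2.83 in HBC4, -1.72 in MKN74, adjusted p = 0.00328) and CXCL16 by 1.42-fold, while CXCL10 (-1.34 ± 0.52, adjusted p = 0.0722) and CXCL11 (-1.56 ± 1.42, adjusted p = 0.171) did not pass. TNFSF10 (TRAIL), a death ligand, was the only one of 17 death ligand and caspase genes to pass, 4.52-fold lower with 3 of 3 probe sets past the threshold. None of 26 NF-kB and inflammatory genes passed, and their median was -0.29.

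**Figure D3:**
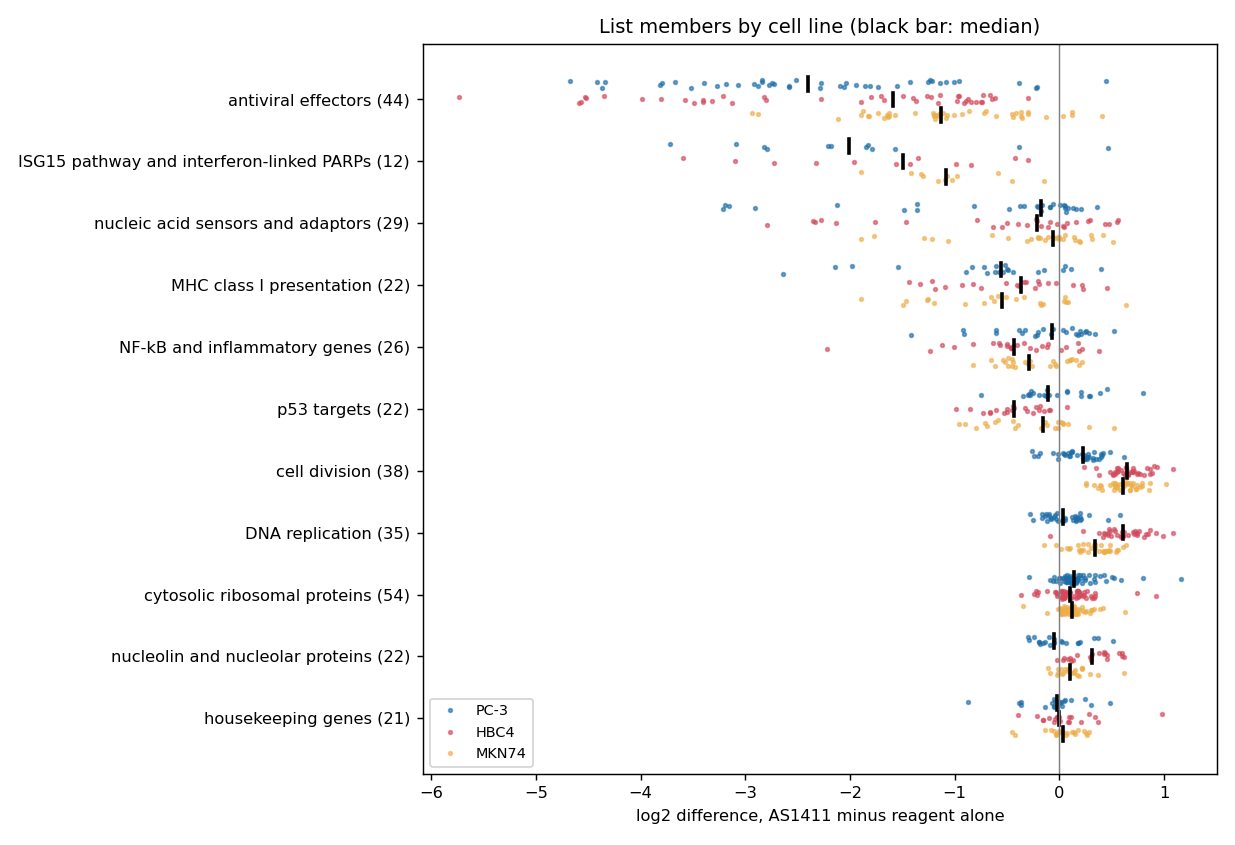
Log2 differences (AS1411 minus reagent alone) of the measured members of 11 gene lists, by cell line (colour), with the number of members in brackets and the median of each line as a black bar. Antiviral effectors spread far below 0 with medians of -2.40, -1.59 and -1.13 in PC-3, HBC4 and MKN74, and cell division genes lie above 0 with medians of 0.23, 0.65 and 0.61, while the medians of housekeeping genes lie near 0.

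A further 43 fallers belonged to no list, with a median difference of -0.69, and those named next were chosen after their values were seen. Some are known interferon-stimulated genes: the ubiquitin ligase RNF213 (-0.86), BTN3A2 and BTN3A1, butyrophilins recognised by gamma-delta T cells (-1.17 and -1.02), the helicase ZNFX1 (-1.07), the transcription factor BATF2 (-1.07), PLAAT4 (-1.38) and LY6E (-0.72). COXFA4L3, the current name of a gene for a small mitochondrial protein, fell by 1.28 (PC-3), 1.48 (HBC4) and 1.16 (MKN74), with an SD of 0.16 (adjusted p = 0.000807). C1S, a protease of the complement cascade, fell by 2.57-fold. Others fell by less and rested on 1 probe set among several. TMEM33, a membrane protein of the endoplasmic reticulum, gave -0.73, with probe sets from -0.73 to 0.03. TMEM106B, a lysosomal protein, gave -0.65 ± 0.06, with probe sets from -0.65 to -0.08, and WASL, which starts actin branching, gave -0.68 ± 0.06, with probe sets from -0.68 to 0.19. Of the 56 fallers with several probe sets 45 had each of them below 0.

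The rises were smaller in size than the falls, with a noncoding RNA at their head. DANCR, a long noncoding RNA that hosts a small nucleolar RNA, stood at 0.60, -0.56 and -1.68 in PC-3, HBC4 and MKN74 with the reagent alone and at 1.15, 0.92 and -0.56 with AS1411. The lines differed from each other more than AS1411 shifted them, so the groups overlapped, and the rise was 0.55, 1.48 and 1.12 in the 3 lines (mean 1.05 ± 0.47, 2.07-fold, adjusted p = 0.0326). PRR11, a proline-rich protein of late cell cycle stages, stood at -0.83, 0.01 and -0.35 with the reagent alone and at -0.12, 1.11 and 0.73 with AS1411. It was higher in each line, with overlap through PC-3 (mean 0.96 ± 0.22, 1.95-fold, adjusted p = 0.00224), and its 3 probe sets ranged from 0.15 to 0.96. NEK2, a centrosomal kinase, had the most even rise, at 0.62 (PC-3), 0.66 (HBC4) and 0.65 (MKN74) (adjusted p = 0.0406).

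Of 38 cell division genes 7 rose and none fell, where 0.0759% of all genes rose. They were SPC25, a kinetochore subunit (0.78 ± 0.34), NEK2, the anaphase activator CDC20 (0.62 ± 0.29), topoisomerase TOP2A (0.60 ± 0.17), the cyclin CCNB2 (0.60 ± 0.30), the proliferation marker MKI67 (0.58 ± 0.24) and the kinase AURKB (0.52 ± 0.15). The list's median was 0.48 and the mean difference was above 0 for each of the 38 genes, 31 of them with the same direction in 3 lines. The rises were smaller in PC-3, where the median was 0.23, than in HBC4 (0.65) and MKN74 (0.61), and PC-3 showed the smallest absolute difference for 34 of the 38, as it did for 7121 of all 19775 genes; this gap between lines was not tested. CDK1 gave 0.04 (PC-3), 0.65 (HBC4) and 0.41 (MKN74) (adjusted p = 0.280), and PLK1, a mitotic kinase, gave 0.42 ± 0.19 (adjusted p = 0.231). The probe sets of CCNB2 ranged from -0.01 to 0.60 and those of TOP2A from 0.00 to 0.60, and with either gene 1 of 3 passed. With the mean of all probe sets of a gene SPC25 and CDC20 passed, and NEK2, TOP2A, CCNB2, MKI67 and AURKB did not. Against the second control, the RNA (uuaccc)4, only AURKB of the 38 passed (0.49, adjusted p = 0.0429), the list median was 0.36, and the median of (uuaccc)4 minus the reagent alone was 0.13.

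Of 35 DNA replication genes 1 rose, where 0.0759% of all genes rose. It was HELLS, a chromatin remodeller (0.76 ± 0.29, adjusted p = 0.0243, with 2 of 5 probe sets past the threshold, and 0.39 with an adjusted p of 0.130 as the mean of its probe sets). The list median was 0.31, with 0.04 (PC-3), 0.60 (HBC4) and 0.34 (MKN74). The mean was above 0 for each of the 35, in 3 lines for 17. RRM2, the small subunit of ribonucleotide reductase, gave 0.55 ± 0.32 (adjusted p = 0.0752), and PCNA, the replication clamp, 0.19 ± 0.27 (adjusted p = 0.484). The other risers were RPL35A, a ribosomal protein (0.65 ± 0.08, with 1 of 5 probe sets past the threshold), PDK3, a kinase that restrains pyruvate dehydrogenase (0.63 ± 0.11), SNHG19, a host gene of small nucleolar RNA (0.59 ± 0.21), PARPBP, an inhibitor of homologous recombination (0.50 ± 0.15), and ATP2A1-AS1 (0.48 ± 0.10), an antisense RNA.

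Many mitotic genes carry the letters TTTGAA, the core of the cell cycle homology region, close to their start. They were searched on both strands in the same windows, can overlap the first motif by the shared letters GAA, and occurred for 13.9% of all genes with a window and in 10.9% of all windows. Of the 15 risers 7 carried them (46.7%), as did 12 of 74 fallers (16.2%), 17 of 33 cell division genes (51.5%) and 1 of 31 DNA replication genes (3.23%). The windows of 3 risers are shown, on the strand of the gene and ending at its start, with the matches in capitals.
PRR11, chr17:59155496-59155745, plus strand: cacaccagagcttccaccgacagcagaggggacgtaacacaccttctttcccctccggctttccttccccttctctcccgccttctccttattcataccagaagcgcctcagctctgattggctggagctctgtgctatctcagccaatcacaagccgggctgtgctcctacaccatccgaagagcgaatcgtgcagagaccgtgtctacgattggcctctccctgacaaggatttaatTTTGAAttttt
TOP2A, chr17:40417897-40418146, minus strand: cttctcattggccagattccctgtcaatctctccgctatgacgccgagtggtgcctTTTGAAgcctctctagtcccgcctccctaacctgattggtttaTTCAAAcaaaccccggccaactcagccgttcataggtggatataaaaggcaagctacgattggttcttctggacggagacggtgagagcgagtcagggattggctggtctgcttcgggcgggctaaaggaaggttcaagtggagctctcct
MKI67, chr10:128126424-128126673, minus strand: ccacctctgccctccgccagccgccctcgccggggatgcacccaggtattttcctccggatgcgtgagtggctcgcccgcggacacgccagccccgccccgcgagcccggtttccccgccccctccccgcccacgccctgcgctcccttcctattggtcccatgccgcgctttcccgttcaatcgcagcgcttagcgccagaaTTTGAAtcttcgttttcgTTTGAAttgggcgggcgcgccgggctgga
The window of NEK2, the riser with the least spread between lines, held no such letters.

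No gene of the lists around nucleolin, the protein that AS1411 binds, passed, where 0.551% of all genes passed in either direction. At that share lists of this size hold few or no calls, so the count says little about these genes. NCL itself stood at 0.30, -0.01 and -0.14 with the reagent alone and at 0.01, 0.29 and 0.48 with AS1411. The groups overlapped and the lines went different ways, -0.29 (PC-3), 0.30 (HBC4) and 0.62 (MKN74) (mean 0.21 ± 0.46, adjusted p = 0.611). None of 22 nucleolar genes passed (median 0.16), nor of 12 genes for nucleolin-linked mRNAs and surface receptors (median 0.02). The nucleolar mean differences were above 0 for 18 of the 22, with medians of -0.05 (PC-3), 0.31 (HBC4) and 0.10 (MKN74). BCL2, whose mRNA nucleolin stabilises, gave 0.04 ± 0.35 (adjusted p = 0.934). Fibrillarin (FBL) gave 0.40 ± 0.20 (adjusted p = 0.114) and nucleophosmin (NPM1) 0.30 ± 0.26 (adjusted p = 0.301). None of 12 macropinocytosis genes passed (median 0.00). Of 54 cytosolic ribosomal protein genes RPL35A alone passed, where 0.0759% of all genes rose. The list's median was 0.12, and 47 of the 54 were above 0 in the mean. Of 9 measured genes on the list of small nucleolar RNA hosts DANCR passed (median 0.12), against the same share. SNHG19, a further host that rose, is not on that list.

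Few G4-binding genes and no telomere gene passed. Of 30 G4 helicases and G4-binding proteins only ADAR, counted above with the sensors, passed (median 0.05), where 0.551% of all genes passed in either direction. The helicase DHX36 gave -0.31 ± 0.11 (adjusted p = 0.283). ATRX, a chromatin remodeller that binds G4 DNA, gave -0.92 ± 0.56 (adjusted p = 0.139), with probe sets from -0.92 to 0.00. None of 21 telomere genes passed (median -0.01), with -0.07 ± 0.23 for TERF1 and 0.12 ± 0.27 for TERF2.

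Stress, growth and identity lists held few calls, where 0.551% of all genes passed in either direction. None of 22 p53 targets passed (median -0.24), although 21 of the 22 lay below 0 in HBC4, with -0.72 ± 0.27 for the BH3 protein PMAIP1 (adjusted p = 0.0563) and -0.42 ± 0.35 for CDKN1A (adjusted p = 0.223). None passed among 22 ATF4 and unfolded protein response genes (median -0.10), 12 heat shock genes (-0.05), 18 MYC genes (0.20), 12 cholesterol synthesis genes (-0.06), 17 immediate early genes (-0.04), 19 mesenchymal genes (-0.12), 13 markers of tumour-initiating cells (-0.02) or 21 housekeeping genes (-0.00). Of 27 hypoxia and glycolysis genes PDK3 rose (median -0.01), and of 17 translation genes EIF2AK2, counted above with the effectors, fell (median 0.15). Of 22 epithelial genes the adhesion molecule CEACAM1 fell evenly (-0.67 ± 0.07, adjusted p = 0.0289). Its relative CEACAM6 gave -0.33 (PC-3), -2.20 (HBC4) and -0.61 (MKN74) (adjusted p = 0.187). The reference genes ACTB (-0.00 ± 0.02) and GAPDH (0.00 ± 0.01) differed little in each line.

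The second control was (uuaccc)4, an RNA that lacks the guanines a G4 needs. Against it AS1411 gave 121 lower genes (0.612%) and 9 higher (0.0455%). Both comparisons use the same AS1411 arrays, so their values are set side by side only. The difference of IFI44 was -3.55 against (uuaccc)4 and -3.35 against the reagent alone, that of IFIT3 -2.56 and -2.51, that of CCL5 -2.01 and -2.13. Among the risers PRR11 gave 0.81 and 0.96 and DANCR 1.09 and 1.05, while MKI67 gave 0.24 against (uuaccc)4 (adjusted p = 0.358) and 0.58 against the reagent alone. The median over the 94 fallers was -1.08 against (uuaccc)4, and that over the 15 risers 0.52. Between the 2 controls limma called 0 genes. Of the 19775 genes 576 had an unadjusted p under 0.05, less than the share of 0.05 that arises without any difference. The medians of (uuaccc)4 minus the reagent alone were -0.05 for the fallers and 0.13 for the risers.

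The RNA pair gives a comparison that shares no array with AS1411 against the reagent alone, though it shares the cell lines and the pooled spread of the fit. For (uuaggg)4 minus (uuaccc)4, 89 of the 94 AS1411 fallers were below 0 in 3 lines, as were 15.4% of all genes, with a median of -0.92. All 15 AS1411 risers were above 0 in 3 lines, as were 18.1% of all genes, with a median of 0.42. IFI44 gave -2.97 for the RNA pair, IFIT1 -2.37, ISG15 -1.93, PRR11 0.75 and DANCR 0.98. A test of the AS1411 difference minus the (uuaggg)4 difference called 0 of 19775 genes (772 genes had an unadjusted p under 0.05, again less than a share of 0.05). This does not show that the 2 oligonucleotides act alike: the 95% intervals were wide, with a median half-width of 0.47 over the fallers, and that of IFIT1 ran from -2.29 to 0.72. The AS1411 difference was the larger of the pair in 89 of 94 fallers and in 15 of 15 risers, but these genes were chosen on the AS1411 difference, so the size of that gap supports nothing. Among fallers with the smallest (uuaggg)4 differences were TMEM33 (-0.07), ZNF681 (-0.02) and TMEM106B (-0.16), whose AS1411 differences were -0.73, -0.62 and -0.65.

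**Figure D4:**
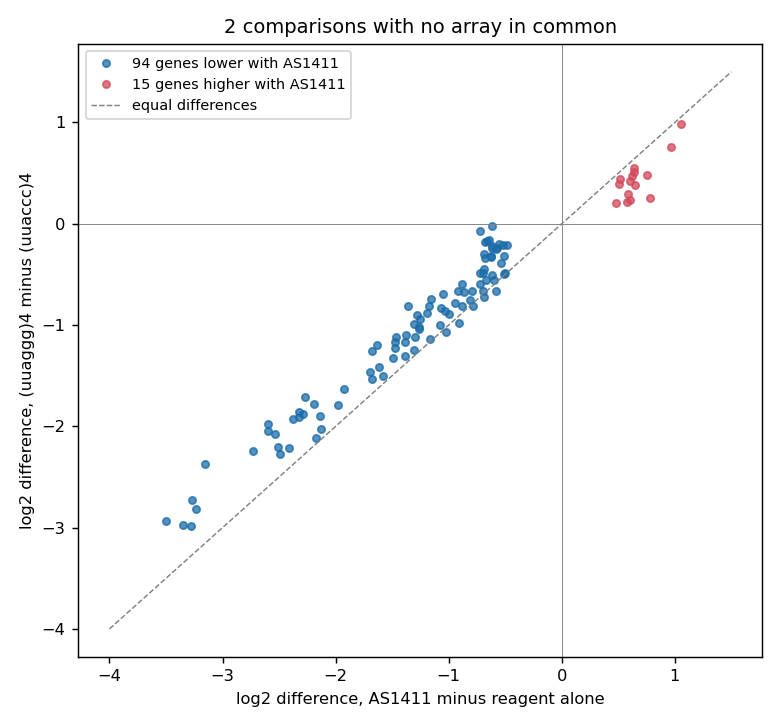
Each point is 1 of the 109 genes past the threshold, with its log2 difference for AS1411 minus the reagent alone (horizontal) and for (uuaggg)4 minus (uuaccc)4 (vertical), means of 3 lines; the dashed line marks equal differences. Fallers (blue) lie in the lower left and mostly above the dashed line, with medians of -1.17 and -0.92, and the 15 risers (red) lie in the upper right.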

How the data were processed

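The deposited table holds log2 expression values, made with RMA per the submitters' processing notes, which name no version. Its 54675 probe sets are all centred on their median across the 12 arrays (largest absolute median 5e-07); how the authors did this is not given in the sources used here. A base of 2 was assumed for the logarithm because values reach 11.2 above that median. Centring removes levels, detection and depth, so no filter on dim probe sets was possible, and the number of arrays limits the precision.

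Genes were named from the platform annotation of the array. Of the probe sets 41091 name 1 gene, 1801 name several and 11721 are unnamed here; 62 array controls were left out. For each of 19775 genes 1 probe set was taken, the one whose line means over the 6 RNA arrays varied most (SD); those arrays do not enter the main difference, only its pooled spread. A model of treatment and cell line was fitted to the 12 arrays with limma 3.58.1 in R 4.3.3 (6 residual and 5.22 prior degrees of freedom), with Benjamini-Hochberg adjustment over the 41091 probe sets and a threshold of 0.05; probe sets with several gene names or none were tested separately. The replicate number assigned here to each array stands for the cell line, so the line is the block: deviations from treatment means correlated at 0.946 or more within a line. SD is over the 3 line differences, and intervals (95%) are those of the fit. With 3 pairs an exact sign permutation could not pass the threshold and was not used. The scripts were tested on simulated data.

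The gene lists, the named genes and the motifs were chosen with earlier results of these data known. Genes were named by rule: the 15 largest mean differences past the threshold in each direction, up to 6 in each direction with the least spread over lines, up to 6 in each direction past the threshold of the other 2 tests, in each list the 4 smallest p-values and the largest difference, and a fixed set of nucleolin, sensor, interferon, telomere and reference genes. List members named beyond these were chosen after their values were seen. Members without a probe set named here were not analysed here. Alternatives covered the arrays used, the block, normalization, probe set choice, a 2-fold minimum and leaving out arrays or lines.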

Additional observations from a re-analysis of the deposited data

Results flagged for a closer look

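Probe sets outside the gene-level test also carried calls for AS1411 against the reagent alone. Of 1801 probe sets that name several genes 3 fell and 0 rose (limma, adjusted together with the unnamed probe sets): one shared by IFITM2 and IFITM1, proteins that hinder viral entry (-2.89, adjusted p = 0.00756, lowest in PC-3 at -3.61 and least low in MKN74 at -1.59), one shared by the butyrophilins BTN3A2 and BTN3A3 (-1.15, adjusted p = 0.00702) and one shared by BOLA2 and SMG1 (-0.88, adjusted p = 0.0208). IFITM2, IFITM1 and BTN3A2 also fell on probe sets of their own, BTN3A3 did not pass on its own (-0.98, adjusted p = 0.108), and BOLA2 and SMG1 cannot be told apart here. Of the 11721 probe sets unnamed here 7 fell and 0 rose, by 0.87 to 1.72 on the log2 scale, each in the same direction in 3 lines; their genes were not analysed here.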

How the results depend on the processing

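For AS1411 against the reagent alone (94 lower, 15 higher) the counts were 23 and 0 on the 6 arrays of the pair alone, 0 and 0 without the replicate block by line, 53 lower after quantile normalization, 58 and 1 without the (uuaggg)4 arrays, 5 higher without the (uuaccc)4 arrays, 24 higher where any probe set could call a gene, and 54 and 1 with a 2-fold minimum. Leaving out a line or an array gave 8 to 80 lower genes, the fewest without HBC4, and 0 to 30 higher, the most without the PC-3 reagent array. The other alternatives run kept these counts within 1.5 times. For AS1411 against (uuaccc)4 (121 lower, 9 higher) the counts were 28 and 0 on 6 arrays, 0 and 0 without the block, 60 and 3 after quantile normalization, 79 and 4 without probe sets of shared sequence, 61 and 1 without the (uuaggg)4 arrays, 80 and 5 without the reagent arrays, 53 and 1 with a 2-fold minimum, 5 higher with averaged probe sets and 18 higher with any probe set. Leaving out a line or an array gave 8 to 79 lower and 0 to 3 higher. The test of AS1411 against (uuaggg)4 differences gave 0 genes under each alternative run. The loss of the other arrays or of the block leaves a wider spread or fewer degrees of freedom by construction; otherwise the cause was not tested. BMPR2 turned to 0.045 (adjusted p = 0.928) when probe sets of shared sequence were left out, and no other named gene past the threshold changed direction. COXFA4L3, IFI44, IFI44L, IFIT3 and UBE2L6 passed under 19 of the 20 alternatives that gave them a value. Depth cannot limit these values in a known way, since centring removed signal over background.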

Other observations

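In PC-3 a few genes stood far higher with AS1411 than in the other 2 lines, and DNAJB1 and CXCR4 also stood higher in PC-3 with (uuaggg)4. The genes named here are members of fixed lists with the largest differences there, and none passed the test over 3 lines. With 1 array per line and treatment the difference between lines was not tested. DNAJB1, a co-chaperone induced by heat shock, was 2.16 higher in PC-3 with AS1411 than with the reagent alone, against -0.15 in HBC4 and 0.09 in MKN74 (mean 0.70 ± 1.27, adjusted p = 0.486), and 1.77 higher in PC-3 with (uuaggg)4 than with (uuaccc)4; the second of its 2 probe sets gave a mean of 0.07. CXCR4, a chemokine receptor that is found with nucleolin at the cell surface, was 1.99 higher in PC-3, against -0.11 in HBC4 and -0.42 in MKN74 (adjusted p = 0.609), and 1.30 higher in PC-3 with (uuaggg)4. ENO1, a glycolytic enzyme, was 2.63 higher in PC-3 on 1 of its 4 probe sets, whose means over the lines ran from 0.01 to 0.97 (adjusted p = 0.353).

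FOS and EGR1, immediate early transcription factors, were 1.29 and 1.10 higher in PC-3 with AS1411, with adjusted p-values over the 3 lines of 0.376 and 0.287. Their differences for (uuaggg)4 in PC-3 were smaller, at 0.24 and 0.26. In MKN74, HK2, the first enzyme of glycolysis, was lower by 1.71, against -0.14 in PC-3 and -0.35 in HBC4 (adjusted p = 0.310).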
